A study of Mus musculus with 2 samples.

Results

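The interferon-gamma-inducible GTPases were followed together with Irf1 and Socs1, the transcription factor and the feedback inhibitor of the same response, as 10 genes chosen by symbol: Gbp2, Gbp3, Igtp, Irgm1, Irgm2, Iigp1, Tgtp1, Ifi47, Irf1 and Socs1. Of these, 9 had probe sets of their own among the 18193 genes measured. The 10th, Tgtp1, was measured only by a probe set that also lists its near-identical neighbour Tgtp2. The cells were mouse regulatory T cells (Tregs) induced in vivo through dendritic cells (DCs), taken after immunization and sorted as positive for both CD25 and Foxp3. One group was Hopx-sufficient and the other Hopx-/-, where Hopx encodes a homeodomain-only cofactor, and each was represented by 1 array. Both groups had the same induction, immunization and sort. Strain, age, the number of mice behind an array, the part of Hopx deleted and any further allele of either group are not given in the sources used here.

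Interferon-gamma binds a receptor whose JAK kinases activate STAT dimers, and these bind gamma-activated sites (GAS) in DNA. Irf1 is among the first genes induced, and its protein binds interferon-stimulated response elements (ISREs), which type I interferons also use through another STAT complex. The GTPases that follow protect cells against vacuolar pathogens. Guanylate-binding proteins (Gbp) assemble on pathogen-containing vacuoles, and the immunity-related GTPases fall into GKS effectors (Iigp1, Tgtp1, Ifi47) and GMS regulators (Igtp, Irgm1, Irgm2), named after the letters of their GTP-binding motif. The GMS proteins sit on the cell's own membranes and hold the effectors inactive there. Socs1 closes the loop by inhibiting the JAK kinases, and it is known to protect Treg function from interferon-gamma.

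The upstream sequences of the genes were read first, because they show what the members have in common apart from their names. RefSeq start sites (GRCm38.p6) were available for 9 of the 10 genes, all but Iigp1, so the motif counts leave Iigp1 out. The 250 bases before each were searched on both strands for GAS (TTCNNNGAA) and for the core of an ISRE (GAAA and GAAA separated by 2 bases). The ISRE core was present in 7 of the 9 genes and in 3.46% of all 27025 genes of the table. GAS was present in 4 of the 9 and in 8.13% of all genes. Igtp, Irgm2 and Tgtp1 held both. The windows below, of 60 bases each and all upstream of the annotated gene start, are shown 5′ to 3′ on the gene's strand, with the bases of either motif in capitals.
Gbp2: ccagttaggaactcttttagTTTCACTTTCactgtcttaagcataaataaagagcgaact
Gbp3: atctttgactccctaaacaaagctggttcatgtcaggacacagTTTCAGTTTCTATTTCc
Igtp: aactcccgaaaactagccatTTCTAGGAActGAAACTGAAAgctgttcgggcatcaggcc
Irgm2: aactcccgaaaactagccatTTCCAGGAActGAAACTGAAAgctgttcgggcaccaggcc
Irgm1: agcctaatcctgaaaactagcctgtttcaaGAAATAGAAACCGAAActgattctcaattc
Tgtp1: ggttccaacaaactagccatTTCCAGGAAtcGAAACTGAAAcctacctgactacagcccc
Tgtp2: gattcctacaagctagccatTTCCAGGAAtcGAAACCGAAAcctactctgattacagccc
Irf1: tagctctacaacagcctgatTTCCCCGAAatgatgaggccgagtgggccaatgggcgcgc
Socs1: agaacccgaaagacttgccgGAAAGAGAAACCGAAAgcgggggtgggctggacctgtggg

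On GRCm38.p6 these windows lie at chr3:142620584-142620643 (plus strand) for Gbp2 and chr3:142559956-142560015 (plus) for Gbp3. Those of Igtp at chr11:58199491-58199550 (plus) and Irgm2 at chr11:58214882-58214941 (plus) agree at 58 of 60 bases. Irgm1 is at chr11:48871421-48871480 (minus), Tgtp1 at chr11:48992295-48992354 (minus) and Tgtp2 at chr11:49064254-49064313 (minus). The windows of Tgtp1 and Tgtp2 agree at 46 of 60 bases. Irf1 is at chr11:53769904-53769963 (plus) and Socs1 at chr16:10785580-10785639 (minus). In Gbp3, Irgm1 and Socs1 the capitals cover 2 overlapping ISRE cores. Ifi47 had neither motif in the window, and a second start site of Gbp3 and of Irf1 had none. A match in letters is a description and does not show that a factor binds there.

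**Figure D1:**
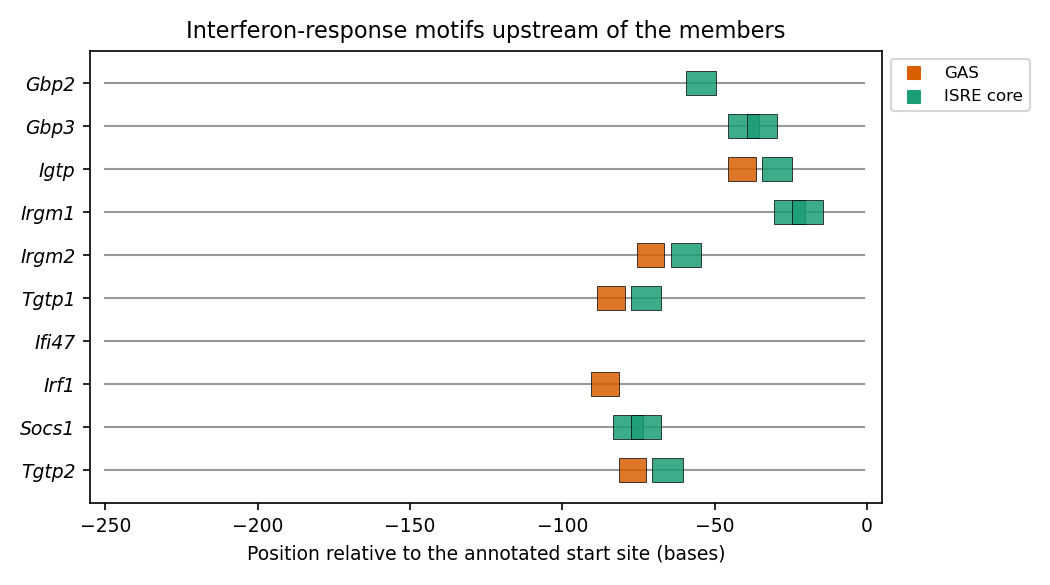
Positions of GAS (orange) and ISRE core (green) matches in the 250 bases upstream of the first listed RefSeq start site of 9 members and of Tgtp2. All matches lie within 90 bases of the start site, and the row of Ifi47 holds none.

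In the deposited table each probe set had its mean over the 2 arrays subtracted on a log-type scale. The arrays therefore mirror each other, and a value gives a difference but no level. All differences below are Hopx-/- minus Hopx-sufficient as the columns give them, read as log2. The log base is not given, so every fold rests on this assumption. With 1 array per genotype the differences have no replicate error and no test, and each describes these arrays only. The available yardsticks are the standard deviation (SD) of 0.18 between probe sets of the same gene, from the 9010 genes with 2 or more, and the SD of 0.21 over all gene differences. As a check of the labels, Hopx was 35.4-fold lower on the Hopx-/- array (difference -5.15, probe sets at -5.43 and -4.86). The median of 18 probe sets for bacterial and phage hybridization spike-ins was -0.12, and their values spanned -0.21 to 0.01.

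The GTPase genes were lower on the Hopx-/- array by differing amounts, while Irf1 and Socs1 were nearly level between the arrays. The 2 classes were not set apart by a clear gap. Gbp3, the GTPase gene with the smallest difference, lay 0.11 from Irf1, less than the SD between probe sets. Centred on the spike-ins, Gbp3 differed by -0.00041 and Ifi47 by -0.07. The members and the other lists were chosen with earlier results of these data known, so counts set beside all genes are descriptions only. Of the 9 measured members 8 were below 0, against 47.4% of all genes. The difference of Irf1, among the 8, was close to 0. At least 1.5-fold lower were 2 of 9, Gbp2 and Iigp1, against 1.25% of all genes. With differences centred on the spike-ins the count was 0. Without probe sets of suffix _s_at, _x_at or _a_at the count was 1. Under that choice Gbp3, Irf1 and Socs1 dropped out, since each was measured by an _a_at probe set only. At least 1.2-fold lower were 4 of 9, with Irgm2 and Irgm1 added, against 9.56% of all genes. None was at least 2-fold lower, as were 0.137% of all genes, and none was at least 1.5-fold higher, as were 0.313%. The median over the members was -0.23, beside 0.01 over all genes, and over the 7 measured GTPase genes alone it was -0.41. Centred on the spike-ins the members' median was -0.12. The members' differences and the spike-ins overlap in part: 5 of the 9 members (Gbp2, Iigp1, Irgm2, Irgm1 and Igtp) were lower than every spike-in, and Ifi47, Gbp3 and Irf1 lay within the spike-in range.

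**Figure D2:**
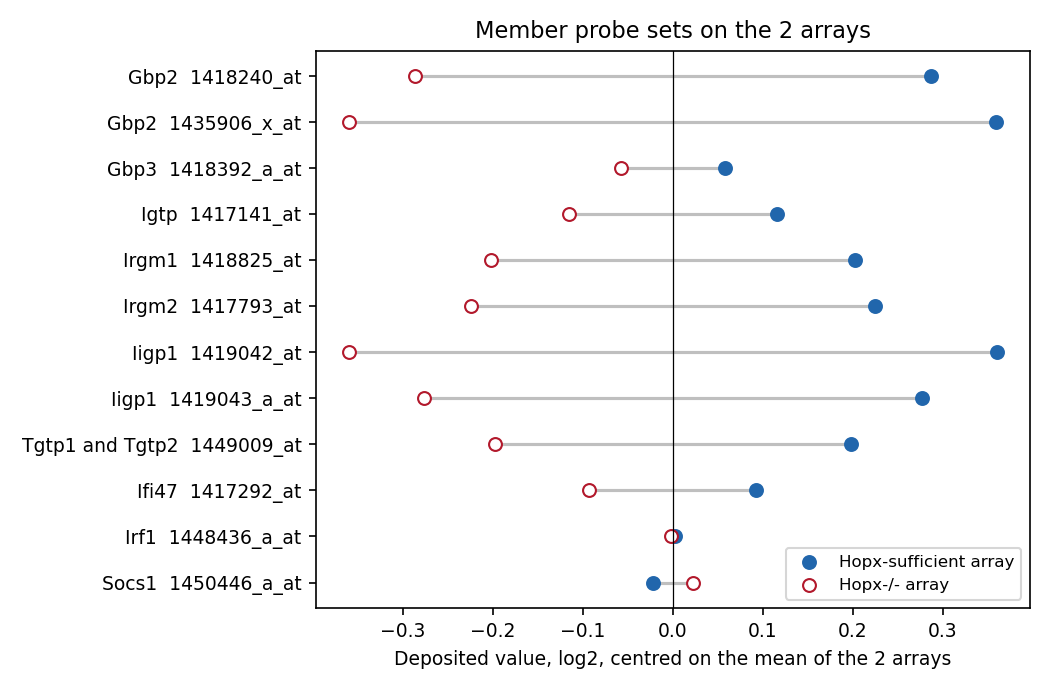
Deposited value of each member probe set, read as log2, on the Hopx-sufficient array (filled blue) and the Hopx-/- array (open red), 1 array each. Error bars are absent because there are no replicates. The pairs are widest for Gbp2 and Iigp1, nearly coincide for Irf1, and stand in the opposite order for Socs1.

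Among the guanylate-binding proteins, Gbp2 and Gbp3 differed in size. Gbp2, a GTPase recruited to vacuoles of Toxoplasma, was measured by 2 probe sets. The first, 1418240_at, read 0.29 on the Hopx-sufficient array and -0.29 on the Hopx-/- array. The second, 1435906_x_at, read 0.36 and -0.36. Both were higher on the sufficient array, and their mean difference of -0.65 made Gbp2 1.57-fold lower without Hopx, with 0.797% of all genes as low or lower. The suffix _x_at marks probes that may also bind other transcripts, and the probe set without it gave the smaller difference of -0.57. Gbp3, encoded in the same cluster on chromosome 3, had 1 probe set, which read 0.06 and -0.06. Its difference of -0.12 was 0.53 smaller in size than that of Gbp2, and 24.8% of all genes were as low or lower. That gap was larger than the SD between probe sets of a gene, which is not an error of a difference between genes. Both genes carry the ISRE core shown above.

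The 3 GMS regulators were all lower on the Hopx-/- array, by less than 1.5-fold. Irgm1, which restrains effector GTPases on host membranes and is known to support survival of T cells exposed to interferon-gamma, read 0.20 in the sufficient and -0.20 in the deficient cells, a 1.32-fold difference. Irgm2 read 0.22 and -0.22, which made it 1.37-fold lower. Igtp, also called Irgm3, read 0.12 and -0.12 and was 1.17-fold lower. Irgm2 and Irgm1 lay close together at -0.45 and -0.41, where 2.85% and 3.87% of all genes were as low or lower. Igtp at -0.23 stood 0.22 above Irgm2, its neighbour on chromosome 11.

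The GKS effectors ranged more widely. Iigp1, also known as Irga6, oligomerises on the parasite vacuole and was measured by 2 probe sets. Probe set 1419042_at read 0.36 in the sufficient and -0.36 in the deficient cells, and 1419043_a_at read 0.28 and -0.28. The mean difference of -0.64 made Iigp1 1.56-fold lower, nearly equal to Gbp2, and 0.879% of all genes were as low or lower. The probe set that lists both Tgtp1, the T cell-specific GTPase, and Tgtp2 read 0.20 and -0.20. Its difference of -0.40 (1.32-fold lower) cannot be divided between the 2 genes and was kept out of the gene counts. Ifi47, also known as Irgd, read 0.09 and -0.09, a 1.14-fold difference that 15.9% of all genes matched or exceeded in the lower direction. It is the single member with an entry in the start-site table and neither motif.

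Irf1 and Socs1 had the smallest differences of the 9 measured members. Irf1, the factor that binds ISREs, read 0.0024 in the sufficient and -0.0024 in the deficient cells, so the arrays differed by -0.0048. Socs1, the JAK inhibitor, read -0.02 and 0.02 and was the single member above 0, at 0.04 (1.03-fold higher). For each of the 2 genes a single probe set was available, and 46.6% and 58.5% of all genes were as low or lower, so both lay in the middle of the distribution. Irf1 carries the GAS and Socs1 the overlapping ISRE cores printed above, and neither was lower beyond the SD between probe sets. Relative to the spike-in median the difference of Irf1 changes sign, to 0.11.

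Ordered from the lowest, the members ran Gbp2, Iigp1, Irgm2, Irgm1, Igtp, Ifi47, Gbp3, Irf1 and Socs1. Of the 8 steps between neighbours in this order, 1 was larger than the SD of 0.18 between probe sets of a gene, that of 0.19 from Iigp1 to Irgm2. This SD comes from the same 2 arrays and is not an error of a difference between genes. No step in the order, that of 0.19 included, is therefore shown to separate ranks. No gene is named for a pattern like that of the members, since 2 mirrored columns give each gene a single number.

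**Figure D3:**
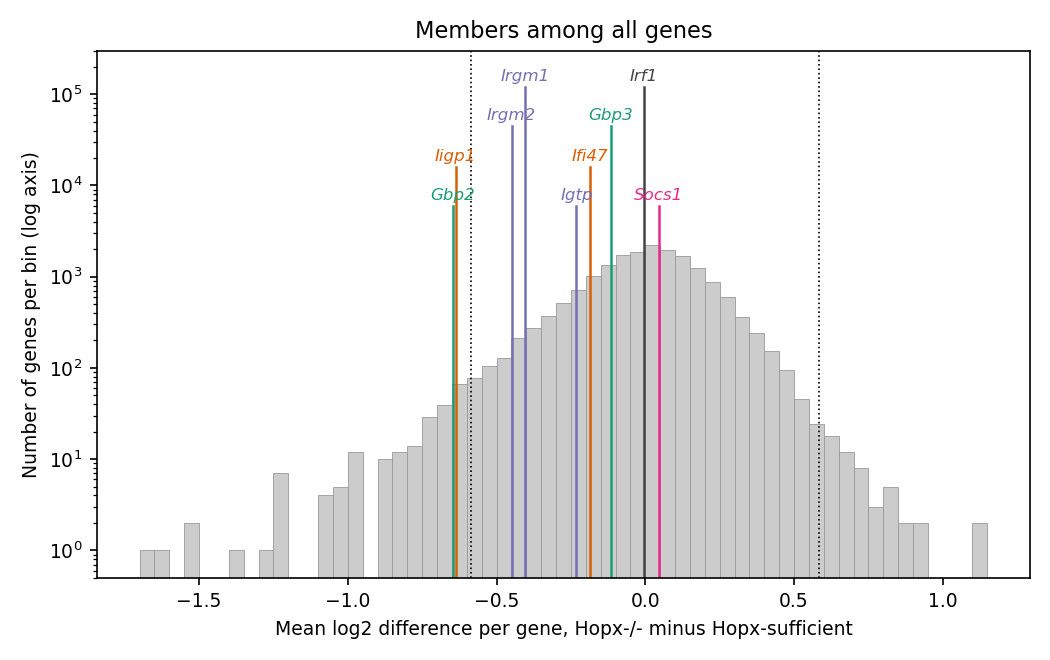
Histogram of the mean log2 difference of all genes in bins of 0.05, with the number of genes on a log axis, 3 genes outside the drawn range, and the members as coloured lines by class (Gbp green, GMS purple, GKS orange, Irf1 grey, Socs1 pink). Dotted lines mark 1.5-fold, and Gbp2 and Iigp1 are the members beyond the lower one.

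Other interferon-inducible GTPases, the Mx genes among them, were also lower on the Hopx-/- array, over a wide range. Of 21 listed genes 7 had probe sets of their own. All 7 were lower on the Hopx-/- array, against 47.4% of all genes, and 2 at least 1.5-fold, against 1.25%. The median was -0.51 and the range ran from -1.52 to -0.03. The largest differences were those of Mx1 (-1.52), a dynamin-like antiviral GTPase driven by type I rather than type II interferon, of the immunity-related GTPase gene Gm4951 (-0.68), a chromosomal neighbour of Iigp1, and of Gbp6 (-0.52, probe sets at -0.60 and -0.44). Without Mx1 and Mx2 the median of the remaining 5 was also -0.51. A probe set shared by Gbp8 and Gbp4 differed by 0.21, in the other direction, while the probe set of Gbp8 alone differed by -0.03. A probe set shared by the giant GTPase genes Gm4070 and Gvin1 differed by 0.17. With shared probe sets added the median of the list was -0.40. Members of these families are similar in sequence, and how far the probes separate them cannot be read from the deposited values.

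Upstream of the members, the signalling genes went both ways and none reached 1.5-fold. Of 10 measured genes 4 were lower and 6 higher, against 47.4% and 51.4% of all genes, with a median of 0.12. Ifng, the ligand itself, differed by -0.31 (1 probe set). The receptor chains Ifngr1 and Ifngr2 differed by 0.29 and 0.11, and the kinase genes Jak1 and Jak2 by 0.28 and 0.13. Of the brakes on the pathway, Socs3, a relative of Socs1 that acts mainly on other cytokine receptors, was higher at 0.35, with its 3 probe sets between 0.32 and 0.38. The phosphatase gene Ptpn2 stood at -0.20, with 4 probe sets between -0.32 and -0.06. Ptpn6 stood at -0.03, the STAT inhibitor gene Pias1 at 0.15, and Usp18, an interferon-induced brake on the type I receptor, at -0.44.

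The relatives of Irf1 and Socs1 can be set beside them. Of 7 other IRF genes 2 were at least 1.5-fold lower, against 1.25% of all genes. These were Irf7 (-0.71), which amplifies type I interferon production, and Irf8 (-0.66), a factor of myeloid and B cells that is also interferon-gamma-inducible. Irf4, a factor of activated and effector Tregs, was lower at -0.41, with probe sets at -0.57 and -0.24. Irf5 stood at -0.12, Irf2 at -0.05, Irf9 at -0.03 and Irf3 at 0.08. Among 7 other SOCS genes none reached 1.5-fold, and their median was -0.01. Besides Socs3, the largest differences were those of Socs4 (-0.20, with 4 probe sets between -0.48 and 0.30) and Cish (-0.10), a target of interleukin-2 signalling. Socs2 stood at 0.08, Socs5 and Socs6 each at -0.01 and Socs7 at 0.01.

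The remaining interferon-gamma targets did not follow the GTPases as a block. Of 29 measured genes 18 were lower and 11 higher, against 47.4% and 51.4% of all genes, with a median of -0.09. At least 1.5-fold lower were 3, against 1.25% of all genes. These were the chemokine genes Cxcl10 (-1.21) and Cxcl9 (-0.97) and, again, Irf8. The 2 probe sets of Cxcl9 disagreed in size, at -1.66 and -0.28. The 10 measured MHC class I and antigen-processing genes of this list, which respond to interferon-gamma in most cells, split into 5 lower and 5 higher, with a median of -0.03 and a range from -0.22 to 0.19. Antiviral genes of type I interferon were mostly lower: of 28, 26 were lower, against 47.4% of all genes, and 11 at least 1.5-fold, against 1.25%. The median of these antiviral genes was -0.47, with Ifit1 at -1.68, Oasl2 at -1.62 and Ifit3 at -1.53. They include Mx1, Mx2, Usp18, Irf7 and Irf9, named above, and without genes shared between lists the median was -0.38. Whether the members differ from this list cannot be tested with 1 array per genotype.

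**Figure D4:**
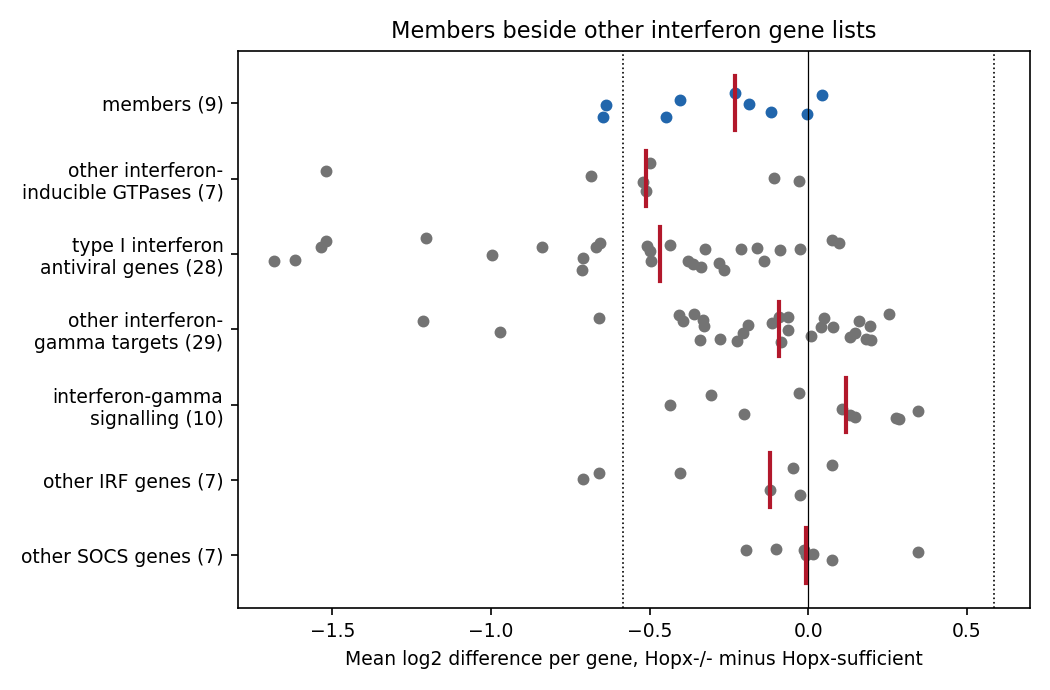
Mean log2 difference of each gene (points, with random vertical offset) in the members and 6 other interferon-related lists, with the number of measured genes in brackets, the list median in red and 1.5-fold as dotted lines. The medians of the 2 other lists of GTPases and antiviral genes, -0.51 and -0.47, lie to the left of the members' -0.23, and the signalling median of 0.12 lies to the right of 0.

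The motifs can be set beside the differences of other genes. Outside the members, 389 measured genes held an ISRE core and no GAS upstream, and 2.31% of them were at least 1.5-fold lower. Of 58 genes with both motifs 3.45% were that much lower, namely Bst2 (-0.84), which encodes the antiviral tetherin, and the inositol kinase gene Itpka (-0.65). The share was 1.58% of 1012 genes with GAS alone and 1.19% of 12985 with neither. The medians of the 4 classes lay between -0.01 and 0.04. Along the chromosomes, protein-coding genes within 5 places of a member were taken, leaving out genes of the interferon lists. Among those left out, Gm4951 near Iigp1 was itself more than 1.5-fold lower (-0.68). The remaining 47 measured genes had a median of -0.03, with 26 lower, against 47.4% of all genes, and none at least 1.5-fold lower. The lowest were Rmi2 near Socs1 (-0.57), Gemin5 near Igtp and Irgm2 (-0.56) and Kyat3 beside Gbp2 (-0.45). Of the 47 genes 1 was at least 1.5-fold higher, the prolyl hydroxylase gene P4ha2 near Irf1 (0.74). These groupings were made, and Bst2, Itpka, Rmi2, Gemin5, Kyat3 and P4ha2 named, after values were seen.

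Markers of the sorted cells and of possible companions moved as well. Of 11 T cell and Treg markers 9 were higher, against 51.4% of all genes, with a median of 0.23, among them Ikzf2 (0.37), Ctla4 (0.34) and Cd5 (0.33). Foxp3 differed by 0.28 and Il2ra, which encodes CD25, by -0.05. The cells had been sorted as positive for both CD25 and Foxp3. Macrophage and DC markers were higher in 13 of 18 cases, against 51.4% of all genes, with a median of 0.26. They were led by Mrc1 (0.89), Cd14 (0.51) and C1qb (0.42), all macrophage genes. Of the DC markers, Siglech (-0.19), Itgax (-0.10) and Flt3 (-0.04) were below 0, Zbtb46 was near it (0.0047) and Xcr1 was above it (0.27), and the macrophage gene Lyz2 stood at -0.38; these 6 were named after their values were seen. B cell markers were lower in 7 of 7 cases, against 47.4% of all genes, with a median of -0.08 that became 0.04 when centred on the spike-ins. Of these markers, Cd79a (-0.41), Ebf1 (-0.39) and Ms4a1 (-0.20) differed most. CD8 T and NK cell markers split 4 and 4 (median -0.05), with Nkg7 at 0.44, Klrd1 at -0.41 and Klrk1 at -0.37. Over 6 neutrophil and erythroid markers the median was -0.01, with Mpo at -0.21, S100a8 at 0.14 and S100a9 at -0.07. Since the table holds no levels, summed marker levels and markers at 0 cannot be given, and fewer cells of a type cannot be told apart from less RNA per cell. The part of these markers in the members' differences was not tested.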

How the data were processed

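Trizol-extracted total RNA, purified with QIAGEN reagents and labelled with biotin per the labels' protocols, was measured on 2 arrays of 45101 probe sets, 1 per genotype. The authors deposited log2-type values centred on the mean of both arrays, as tested on the table (largest absolute row sum 1e-06). Summarisation, normalization and log base are not given in the sources used here. Base 2 was assumed; with natural logs every difference would be 1.44 times larger. The number of arrays limits the precision. All 12 member probe sets had values on the steps of 9.54e-07 that single-precision numbers from 8 to 16 follow, as did 57.3% of all probe sets. Lower numbers can fall on these steps too, so no single level follows from this.

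Probe sets were named by the platform annotation of 2016, with symbols updated by gene ID (GRCm38.p6). The 34945 probe sets with 1 symbol gave 18193 genes, and the value of a gene is the mean over its probe sets. Left out were 932 probe sets that list several symbols, 9160 without a symbol and 64 controls. A fold of 1.5 is a rule of size. The members and lists were chosen with earlier results of these data known. Named are all members, Hopx, Foxp3, Il2ra, the signalling, IRF and SOCS genes and the 3 most different genes of every other list. Some DC and macrophage markers, Mx2, Gbp8, Bst2, Itpka, P4ha2, Rmi2, Gemin5, Kyat3 and the shared probe sets were named after their values were seen. The averaging was tested on simulated data. A planned search of protein motifs was not made. Python 3.11.15, numpy 2.4.6, pandas 2.3.3 and matplotlib 3.10.9 were used.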

Additional observations from a re-analysis of the deposited data

How the results depend on the processing

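No paired analysis was possible because there is 1 array of each genotype, and for the same reason no array could be left out. Of 69 member gene values under 8 alternatives, 66 moved by less than the SD of 0.18 between probe sets of a gene. The other 3 moved when the values were read as natural logs (Gbp2 -0.93, Iigp1 -0.92, Irgm2 -0.65), as did the medians of the other GTPases (-0.74) and of the type I antiviral genes (-0.67). The count of 66 was largely fixed in advance and is no measure of stability. Centring shifts all genes alike, here by less than this SD. The 7 members with 1 probe set kept their value, or dropped out, under every choice among probe sets. The count of members at least 1.5-fold lower, 2 in the report, was 4 at 1.2-fold, 0 at 2-fold, 0 with centring on the spike-ins and 1 without probe sets of suffix _s_at, _x_at or _a_at, which leaves fewer members and a median of -0.43. Letting the farthest probe set stand for a gene moved the IRF median to -0.31. Centring on the spike-ins turned the sign of the median of the other interferon-gamma targets (0.03), of the SOCS genes (0.11) and of the B cell (0.04), CD8 T and NK (0.06) and neutrophil and erythroid (0.10) markers; the SOCS median also turned with the median over probe sets (0.02) and without those suffixes (0.01). Leaving out probe sets on the finest value steps was chosen after the data were seen. Signal over background is unknown for every probe set.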

Other observations

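A list of interferon ligands, receptors and inducing cytokines gave further values. The 8 measured type I interferon genes split into 4 lower and 4 higher on the Hopx-/- array, with a median of 0.01 and a range from -0.27 to 0.26. The 6 receptor chains were higher in 5 cases, against 51.4% of all genes, with a median of 0.28. They were led by Ifnar1 (0.48, probe sets at 0.30 and 0.65), a chain of the type I interferon receptor. Next was Il10rb (0.44 by both of its probe sets), a chain shared by the receptors of interleukin-10 and the type III interferons. Il12a, which encodes the p35 subunit of interleukin-12, an inducer of interferon-gamma, was the most different gene of the list at -0.62 (1.54-fold lower, 1 probe set). None of the other 18 measured genes of the list reached 1.5-fold.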
